A study of Mus musculus with 4 samples.

Results

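A set of 7 genes that are read as signs of nerve cells and glia were followed in cultured mouse ureters in which WNT secretion was blocked. They were chosen by name: all probes whose gene name in the array files equals Sox10, Erbb3, Phox2a, Hand2, Elavl4, Tubb3 or Stmn2, which gave 7 genes and 8 probes of 29924 gene names and 39429 gene probes on the array. Elavl4 has 2 probes and each of the other genes has 1. Ureters of wild-type NMRI embryos (E12.5, sex not determined) were explanted and cultured for 18 h in serum-free medium, with 10 µM IWP-2 in the treated pools and with DMSO (2 parts per 1000) in the control pools. IWP-2 inhibits Porcupine, the enzyme that lipid-modifies WNT ligands so that they can be secreted, and it was added to the medium of the whole explant. RNA of 1 treated and 1 control pool was compared on each of 4 two-colour arrays, with the treated RNA in the red channel on arrays 1 and 3 and in the green channel on arrays 2 and 4. Each RNA came from many pooled ureters, so that a value is a mean over embryos and over all cell types of the ureter.

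The nerve cells and glia of the ureter are not born in the ureter itself. Neural crest cells migrate from the dorsal neural tube, reach the urogenital tract, and form autonomic ganglia and the Schwann cell lineage there. SOX10 marks migrating crest cells and their glia, neuregulins signal to the glial lineage through ERBB3, PHOX2A and HAND2 drive the noradrenergic programme of autonomic neurons, and ELAVL4, TUBB3 and STMN2 belong to the general equipment of young neurons. None of these genes is exclusive to nerves in this organ: Erbb3 is also an epithelial gene and Hand2 is also expressed in mesenchymal cells of several organs.

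The probes show what was measured for each gene. All are 60 bases long, and their last 30 bases (positions 31 to 60) are given 5′ to 3′ with the hexamer AATAAA, the usual polyadenylation signal, in capitals.
Sox10: tccagcgataccttAATAAAgtacgtagct
Erbb3: ttccctaaggctaacgcccagagaatttga
Phox2a: ttcctttattttttctttgaaaaacgtgta
Hand2: atttaattaatattgaaggtgtaaacattg
Elavl4, main probe: tgtgtgtgtgtatgtgtacatataatataa
Elavl4, further probe: ttaagatgaccattcgctcatttgaagaag
Tubb3: acttAATAAAgttactgctgtctgtcagat
Stmn2: gatgAATAAAgaattggagttctgtgaact
The hexamer was searched on the given strand of each probe. It stood once in the probes of Sox10, Tubb3 and Stmn2 and in 12.6% of all gene probes. According to the files (mm9 build) the Sox10 probe lies at chr15:78985518-78985577 on the minus strand, the Erbb3 probe at chr10:128006424-128006483 on the minus strand, and the Phox2a probe at chr7:108971127-108971186 on the plus strand. Hand2 is read at chr8:59803220-59803279, Tubb3 at chr8:125945850-125945909 and Stmn2 at chr3:8561545-8561604, all on the plus strand. The main Elavl4 probe is at chr4:109877455-109877514 and the further one at chr4:109878558-109878617, both on the minus strand. Gene models of mm9 were not used here, and the probes are therefore not placed in exons or untranslated regions.

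The block of WNT signalling was seen on every array. Axin2, Sp5 and Lef1, which are standard transcriptional targets of the pathway, had mean log2 ratios of -1.56, -2.72 and -1.47 over the 4 arrays. Of the 22455 genes tested, 33.1% passed the limma test at an adjusted p of 0.05, with 15% lower and 18.1% higher in the treated pools, so that a call alone is common in these data. The SD of a log2 ratio between arrays had a median of 0.11 over these genes. Median raw intensities per channel spanned 368 to 711 in control and 385 to 694 in treated pools, but the channels of an array differed. Red was the brighter on each: treated 694 against control 368 on array 1 and 651 against 396 on array 3. On array 2 control was 609 against treated 393, and on array 4 711 against 385. Explant markers were present: all 7 epithelium, 6 mesenchyme and 5 smooth muscle markers were tested, whereas of the 5 melanocyte markers, another crest derivative, Tyrp1 was well above background in 0 of 8 channels and Dct in 2 channels of each group.

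All 8 probes were well above background in all 8 channels, so that no gene was lost to the filter on dim probes. With IWP-2, 4 of the 7 genes were higher (Erbb3, Phox2a, Hand2 and Stmn2), 0 were lower (also 0 by limma at an unadjusted p of 0.05) and 3 were not called (Sox10, Elavl4 and Tubb3). The share of all genes called higher was 18.1%. The direction was the same on all 4 arrays for 5 of the 7 genes, as for 43.4% of all genes. The median log2 ratio of the 7 genes was 0.27, against 0.00 for all genes tested. In bulk RNA, more cells of a type and more RNA per cell cannot be told apart, and neither can fewer cells and less RNA.

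**Figure D1:**
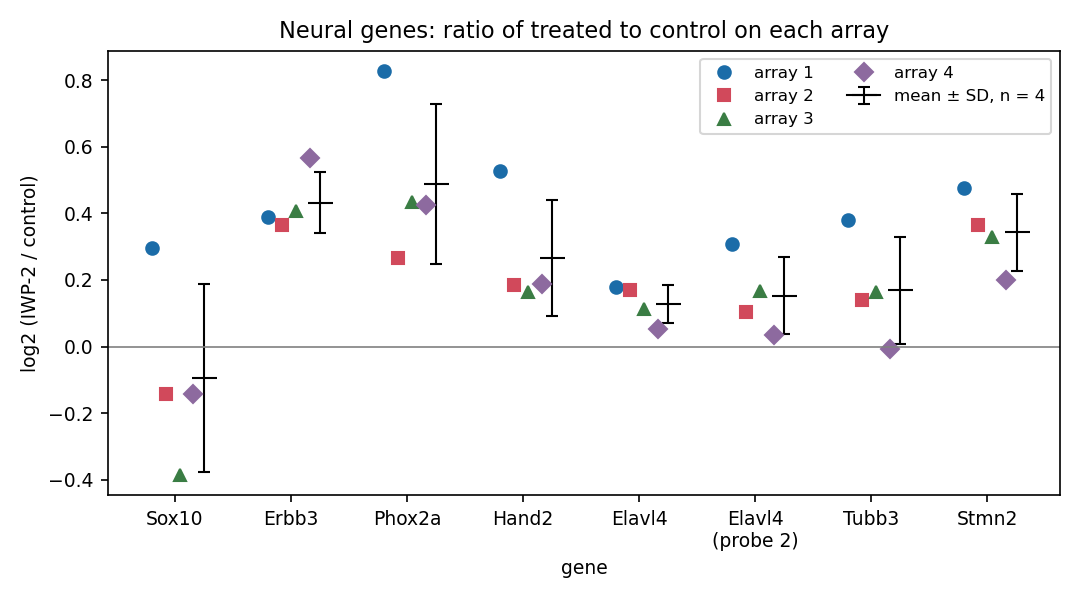
Log2 ratio of IWP-2 over control (y axis) for the 8 probes of the 7 genes (x axis). Each symbol is 1 of 4 arrays, and the bar gives mean and SD. Sox10 lies on both sides of 0, Erbb3 lies between 0.36 and 0.57 on all arrays, and array 1 gives the highest value for every other gene shown.

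Sox10, the SOXE transcription factor that crest cells keep as they become glia, did not change in a uniform direction. Its log2 level in the control channel was 10.49, 10.70, 10.89 and 10.95 on arrays 1 to 4, and 10.79, 10.56, 10.50 and 10.81 in the treated channel. The ratio was positive on array 1 and negative on the other arrays, and the levels of the groups overlapped. The log2 ratios were 0.29, -0.14, -0.39 and -0.14, with a mean of -0.09 ± 0.28 (SD, n = 4). This missed the test (adjusted p = 0.520) with a 95% confidence interval of -0.34 to 0.15. The result hung on single arrays: without array 1 Sox10 was lower by the test (log2 ratio -0.26, adjusted p = 0.0142), and without array 3 the ratio turned to 0.08.

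Erbb3, the receptor that takes up neuregulin signals in Schwann cell precursors, rose by a similar step on every array. It stood at 10.25, 10.41, 10.63 and 10.23 in the control channels and at 10.64, 10.78, 11.04 and 10.80 in the treated channels of arrays 1 to 4. Every treated channel was above every control channel, a separation in either direction that was found for 22.5% of all genes. The margin was narrow, with 10.64 (treated, array 1) just above 10.63 (control, array 3). The log2 ratios of 0.39, 0.36, 0.41 and 0.57 gave a mean of 0.43 ± 0.09 (SD, n = 4; 1.35-fold; adjusted p = 0.00131). Epithelial markers moved the same way: 7 of 7 were higher, with log2 ratios between 0.24 and 0.34 and a summed log2 level of 17.46 to 17.58 in the control and 17.64 to 17.96 in the treated channels. The part of the epithelium in the Erbb3 value was not tested.

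Phox2a, a homeodomain factor of noradrenergic neurons, had the largest mean ratio of the 7 genes, although without array 1 it was below Erbb3 (0.39 against 0.44). Its control levels were 13.40, 13.40, 13.60 and 13.63, and its treated levels 14.23, 13.67, 14.04 and 14.05. The groups did not overlap, as for 22.5% of all genes, but the margin was narrow. The lowest treated level (13.67, array 2) lay just above the highest control level (13.63, array 4). Array 1 gave by far the largest step. The log2 ratios were 0.83, 0.26, 0.43 and 0.43, with a mean of 0.49 ± 0.24 (SD, n = 4; 1.40-fold; adjusted p = 0.00352). The gap of the group means exceeded the 0.23 log2 units by which the 4 control pools differed, and it remained past the test when any single array was left out (adjusted p between 0.00173 and 0.00587). With the rounded fold changes of the series table it missed the test (log2 ratio 0.49, adjusted p = 0.116).

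Hand2, a bHLH factor that acts beside PHOX2A in sympathetic neurons, rose less. The control levels were 13.03, 12.85, 13.09 and 13.30, the treated levels 13.55, 13.04, 13.25 and 13.49. All arrays showed the same direction, yet the groups overlapped because the control pools themselves ranged over 0.45 log2 units. Ratios of 0.53, 0.18, 0.17 and 0.19 gave a mean of 0.27 ± 0.17 (SD, n = 4; 1.20-fold; adjusted p = 0.0204). Without array 1 the ratio was 0.18 and missed the threshold (adjusted p = 0.0520), and it also missed it when the 8 channels were fitted as separate samples (adjusted p = 0.202).

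Of the 3 neuronal genes Stmn2 passed the test, and Tubb3 and Elavl4 missed it. Stmn2, which encodes the microtubule-destabilising stathmin of growth cones, stood at 13.27, 13.12, 13.07 and 13.59 in the control and at 13.74, 13.48, 13.40 and 13.79 in the treated channels. Each treated channel exceeded the control channel of its own array, although array 4 had a control pool above the treated pools of arrays 2 and 3. Its log2 ratios of 0.48, 0.37, 0.33 and 0.20 averaged 0.34 ± 0.11 (SD, n = 4; 1.27-fold; adjusted p = 0.00339). Fitted as separate samples, the 8 channels did not carry the call (adjusted p = 0.107).

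Tubb3 encodes the neuronal beta-tubulin that serves as the most common stain for nerve fibres. It was measured at 12.60, 12.63, 12.45 and 13.11 in the control and at 12.98, 12.77, 12.61 and 13.10 in the treated channels. Array 4 showed no step, and the groups overlapped. The log2 ratios of 0.38, 0.14, 0.16 and -0.01 had a mean of 0.17 ± 0.16 (SD, n = 4; adjusted p = 0.0502; 95% confidence interval 0.04 to 0.29).

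Elavl4 encodes HuD, an RNA-binding protein of postmitotic neurons. Its main probe read 12.70, 12.38, 12.39 and 12.91 in the control and 12.87, 12.55, 12.51 and 12.96 in the treated channels, and the further probe read 10.76, 10.63, 10.65 and 11.01 against 11.07, 10.73, 10.81 and 11.04. Both probes were higher on all arrays, with overlapping groups. The mean log2 ratio was 0.13 ± 0.06 for the main probe (SD, n = 4; adjusted p = 0.0571). For the further probe it was 0.15, and it passed the fit over all probes (adjusted p = 0.0382), in which 32.7% of the probes were called. The calls of Elavl4 and Tubb3 moved with the setting: their adjusted p was 0.0395 and 0.0457 with the probes of a gene averaged, 0.239 and 0.174 with median centring in place of loess, and 0.616 and 0.505 with the 8 channels as separate samples.

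**Figure D2:**
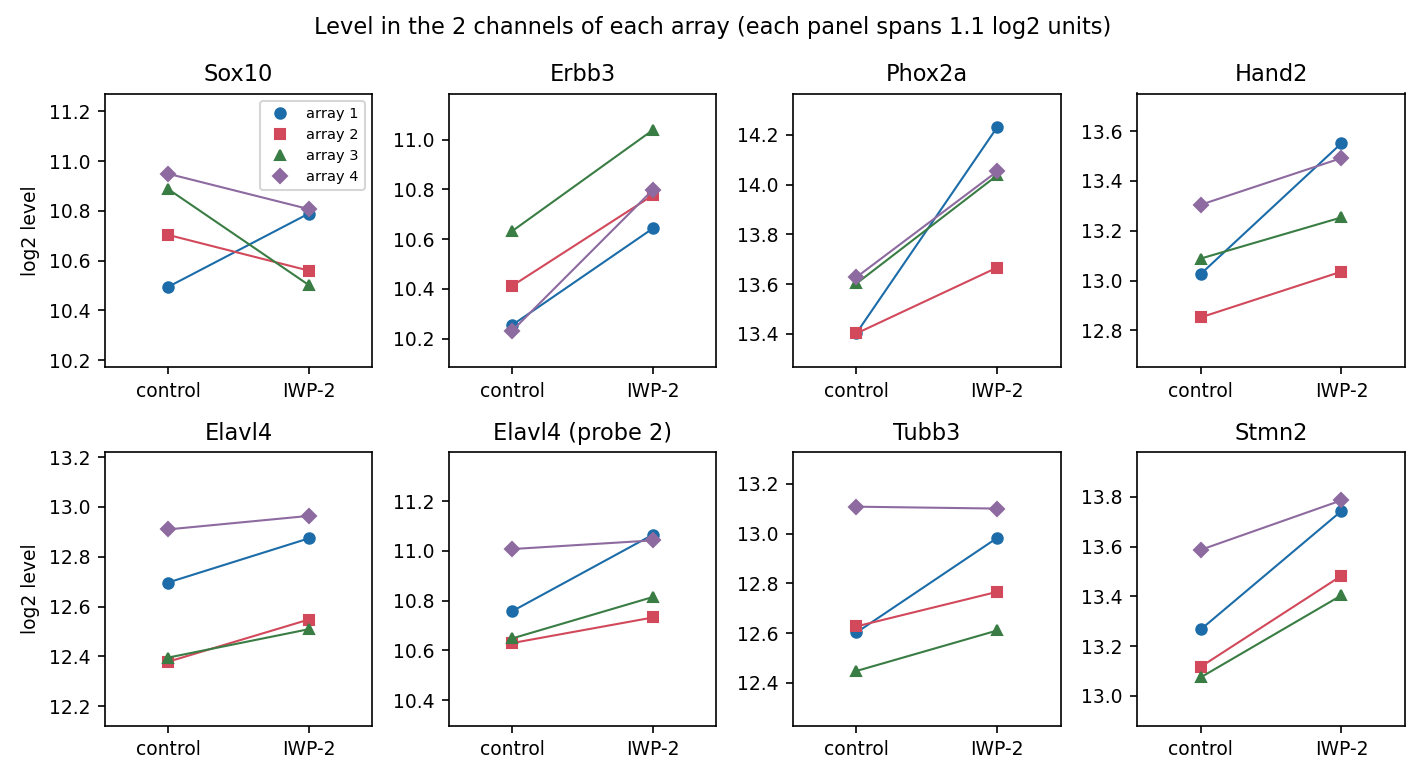
Log2 level of each probe in the control and IWP-2 channel (y axis), with a line for each of the 4 arrays; each panel spans 1.1 log2 units, and levels of different panels are not comparable because each probe hybridises differently. For Erbb3 and Phox2a all treated levels lie above all control levels, by a narrow margin. The control pools of Tubb3, in contrast, differ by 0.66 units and its treated pools lie among them.

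None of the 7 genes reached a 2-fold change. The largest mean was 1.40-fold (Phox2a), and the largest log2 ratio on a single array was 0.83 (Phox2a, array 1). The filter that the study applied (intensity over 100 and a change of more than 2-fold on each array) kept 104 genes lower (0.348%) and 22 genes higher (0.0735%) among 29924, and 0 of the 7 genes. At 1.5-fold it again kept 0 of them.

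Sox10 was set against the other genes on the same arrays. The difference of log2 ratios (the other gene minus Sox10) averaged 0.53 for Erbb3, 0.58 for Phox2a, 0.36 for Hand2, 0.44 for Stmn2, 0.26 for Tubb3 and 0.22 for Elavl4. It was positive on 4 of 4 arrays for all but Elavl4, which was above Sox10 on 3 of 4. With 4 arrays the exact two-sided sign-flip test cannot go below 0.125, the value it gave for the first 5 of these 6 comparisons (0.15 after Benjamini-Hochberg adjustment), so that this test could not pass whatever the difference. The differences are therefore given as values, and no difference between Sox10 and the other genes is claimed from them.

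The levels of the 4 control pools already differed among themselves in these genes. Each pool was read on 1 array in 1 dye, so that pool, array and dye cannot be told apart in these levels. The range over the 4 control pools was 0.66 log2 units for Tubb3, 0.53 for Elavl4, 0.51 for Stmn2, 0.46 for Sox10, 0.45 for Hand2, 0.40 for Erbb3 and 0.23 for Phox2a, against a median of 0.21 over all genes tested. Except for Phox2a, each range was thus well above that median. Control pool 4 was highest for all of them except Erbb3, which was highest in pool 3. Over the 8 channels, Elavl4, Tubb3 and Stmn2 moved closely together (Pearson r between 0.88 and 0.90), and Hand2 moved with Phox2a (0.88) and Stmn2 (0.87). Erbb3 did not follow Tubb3 (-0.09) or Elavl4 (-0.17), and the r of Sox10 with the other genes reached at most 0.46. Over the 4 control channels alone, Sox10 had r of 0.91 with Phox2a, 0.62 with Hand2 and 0.12 to 0.43 with the rest. There Erbb3 had r of -0.82 with Elavl4, -0.72 with Tubb3, -0.78 with Stmn2, -0.31 with Hand2 and 0.23 with Phox2a. These control values rest on 4 pools, with the control RNA in green on arrays 1 and 3 and in red on arrays 2 and 4. The values over 8 channels describe channels that share 4 arrays and 2 dyes. The profile most like each gene among 17020 named genes was that of D830039M14Rik for Sox10 (r = 0.93), Tbc1d17 for Erbb3 (0.99), Celsr3 for Phox2a (0.98), Slc26a4 for Hand2 (0.99), Nap1l5 for Elavl4 (0.99), Tmem74 for Tubb3 (0.98) and Cltb for Stmn2 (0.98). Each is the highest of very many r over only 8 channels, so that a high value follows in part from the choice. No test was run on these matches.

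Larger lists of neuronal and glial genes were read beside the 7 genes, by counts and medians. For these and the lists that follow, the shares among all genes tested were 18.1% called higher and 15% called lower. A ratio above 0 was found for 11307 of the 22455 genes. Of 25 pan-neuronal genes 24 were tested, and 12 were higher, 1 was lower and 11 were not called, with a median log2 ratio of 0.16 and 22 of 24 ratios above 0. Elavl2, a paralogue of Elavl4, rose by 0.57 ± 0.19 (SD, n = 4; adjusted p = 0.00121). Mapt, the microtubule-binding protein tau, rose by 0.43 ± 0.08 (adjusted p = 0.000652), and the neurofilament gene Nefm by 0.39 ± 0.15 (adjusted p = 0.00492). The vesicle calcium sensor Syt1 went the other way, with -0.33 ± 0.19 (adjusted p = 0.00559). The count leaned on arrays 1 and 2: without either of them 6 of the 24 genes were higher.

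Among 18 genes of autonomic neurons 9 were higher, 4 were lower and 5 were not called, with a median of 0.22; without array 3 or without array 4, 2 were lower. Insm1, a zinc finger factor of neuroendocrine and sympathetic progenitors, rose by 0.73 ± 0.16 (SD, n = 4; adjusted p = 0.000549). The granule protein gene Chgb rose by 0.57 ± 0.22 (adjusted p = 0.00240) and the transcription factor gene Gata3, which is also active in the ureteric epithelium, by 0.56 ± 0.25 (adjusted p = 0.00295). Gfra2, the neurturin co-receptor, was lower at -0.65 ± 0.25 (adjusted p = 0.00253). On arrays 1 to 4 Insm1 gave 0.96, 0.74, 0.62 and 0.61. All values were thus above 0, and array 1 was again the highest.

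The 13 genes of the glial lineage gave no common direction: 3 were lower, 3 were higher and 7 were not called, and their median was 0.04. The largest change was that of Ednrb, the endothelin receptor of crest progenitors, which is not limited to crest cells. Its log2 ratios were -1.26, -1.51, -1.71 and -1.05 (mean -1.38 ± 0.29, SD, n = 4; adjusted p = 0.000273). S100b, a calcium-binding protein of glia, gave -0.12 on array 1 and -0.74, -0.74 and -0.75 on the others (mean -0.59 ± 0.31; adjusted p = 0.00520). Egr2, the factor that starts myelination in Schwann cells and that also responds to growth factors in other cells, was lower at -0.50 ± 0.13 (adjusted p = 0.00166), and Tfap2a, which acts early in the crest and also in epithelia, rose by 0.43 ± 0.14 (adjusted p = 0.00225). A further Tfap2a probe did not pass the test (log2 ratio 0.09, adjusted p = 0.196).

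**Figure D3:**
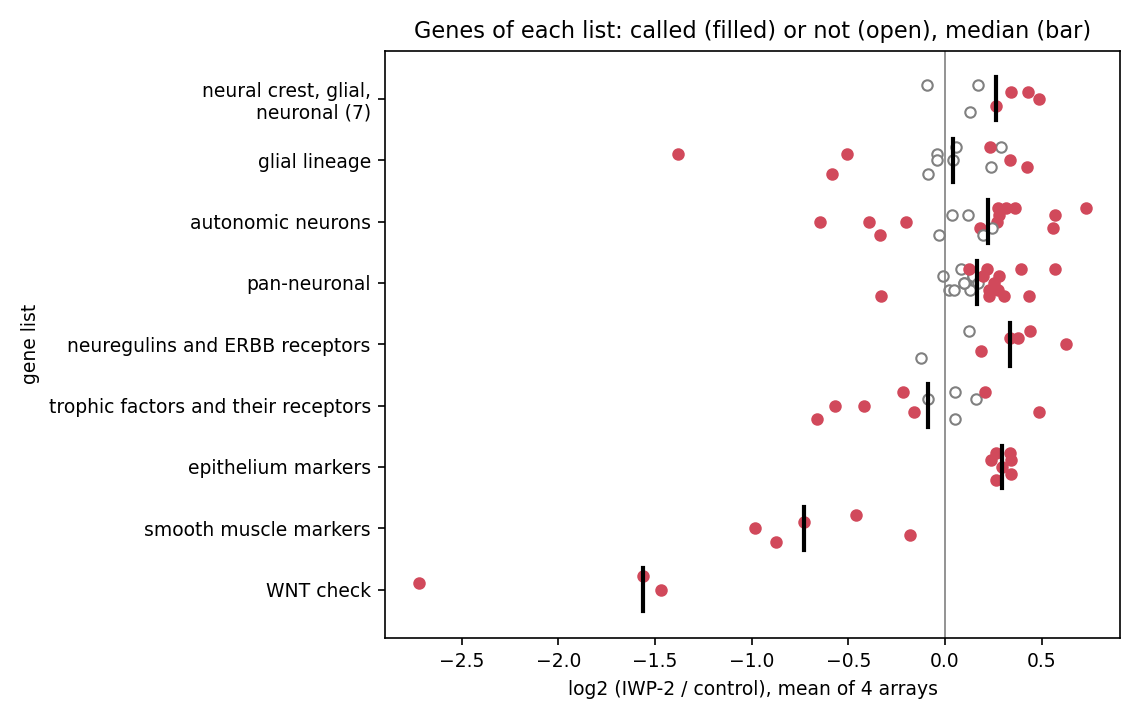
Mean log2 ratio of IWP-2 over control (x axis) for the genes of 9 lists (y axis). Filled points passed the limma test, open points did not, and the bar is the list's median: 0.27 for the 7 genes, 0.04 for the glial lineage, 0.22 for autonomic neurons, 0.16 for pan-neuronal genes and -1.56 for the WNT targets.

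The ligands and receptors that act on these cells were counted next. Of the 7 neuregulin and ERBB genes besides Erbb3, 5 were higher, 0 were lower (1 by limma at an unadjusted p of 0.05) and 2 were not called (median 0.34). Egfr, a receptor of the same family that is broadly expressed in epithelium and mesenchyme, rose by 0.63 ± 0.10 (SD, n = 4; adjusted p = 0.000224). Nrg3 is among the 5 but was well above background in 4 of 4 treated and only 2 of 4 control channels, so that it entered the test through the treated pools, and its ratio is not given. With all 8 channels required, 4 of these genes were higher. Erbb4, a neuregulin receptor, rose by 0.38 ± 0.08 (adjusted p = 0.00196) and the ligand gene Nrg4 by 0.34 ± 0.12 (adjusted p = 0.00460). Both probes were dim, and from the processed signals, which carry no offset, the log2 ratios were 0.76 and 0.64. A further probe of Nrg4 gave 0.06 (adjusted p = 0.546).

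Of 11 trophic factors and their receptors 5 were lower, 2 were higher and 4 were not called. Without array 1, 1 was higher, and without array 3 or without array 4, 3 were lower. The neurotrophin gene Ntf3 was lower at -0.57 ± 0.12 (SD, n = 4; adjusted p = 0.000433), and its receptor gene Ntrk3 at -0.66 ± 0.20 (adjusted p = 0.00102). Ntrk2, the receptor of BDNF, was higher at 0.49 ± 0.07 (adjusted p = 0.000458). The 4 arrays had the same sign for each of these genes.

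Paralogues, which share sequence with the 7 genes, were listed too. Of 19 paralogues, 10 of which stand in the lists above as well, 3 were lower, 7 higher and 9 not called (median 0.09). Sox9, a SOXE factor like Sox10 that is expressed in ureteric mesenchyme, was lower (-0.57 ± 0.58, SD, n = 4; adjusted p = 0.0108), with ratios of -1.05, 0.23, -0.95 and -0.53 on arrays 1 to 4, so that array 2 had the opposite sign. Without the dye term its call was lost (adjusted p = 0.0657). Hand1, the paralogue of Hand2, was lower at -0.39 ± 0.33 (adjusted p = 0.0364), although array 1 gave 0.06, and the call was lost without array 3 (adjusted p = 0.0747) or array 4 (adjusted p = 0.0803).

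Array 1 stood apart in the 7 genes. The median log2 ratio of the 7 genes was 0.39 on array 1 and 0.18, 0.17 and 0.19 on arrays 2 to 4. Array 1 gave the highest of the 4 ratios for 6 of the 7 genes, for 14 of 24 pan-neuronal genes and for 13 of 18 genes of autonomic neurons, as against 22.2% of all genes tested. It did so also for 6 of 13 glial genes, 7 of 11 trophic factors and receptors and 2 of 3 WNT targets. Among markers of other cell types it did so for 2 of 6 of the mesenchyme and 1 of 3 of melanocytes. The count was 1 of 5 for endothelium, for blood and for macrophages. It was 0 of 7 for the epithelium, 0 of 5 for smooth muscle and 0 of 5 for nephron progenitors. The median of the mesenchyme markers, too, was highest on array 1 (0.33, against 0.09, -0.05 and 0.16). Without array 1, 3 of the 7 genes were higher and 1, Sox10, was lower. The median of all genes was within 0.01 of 0 on every array, and the part of the array in these values was not tested.

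**Figure D4:**
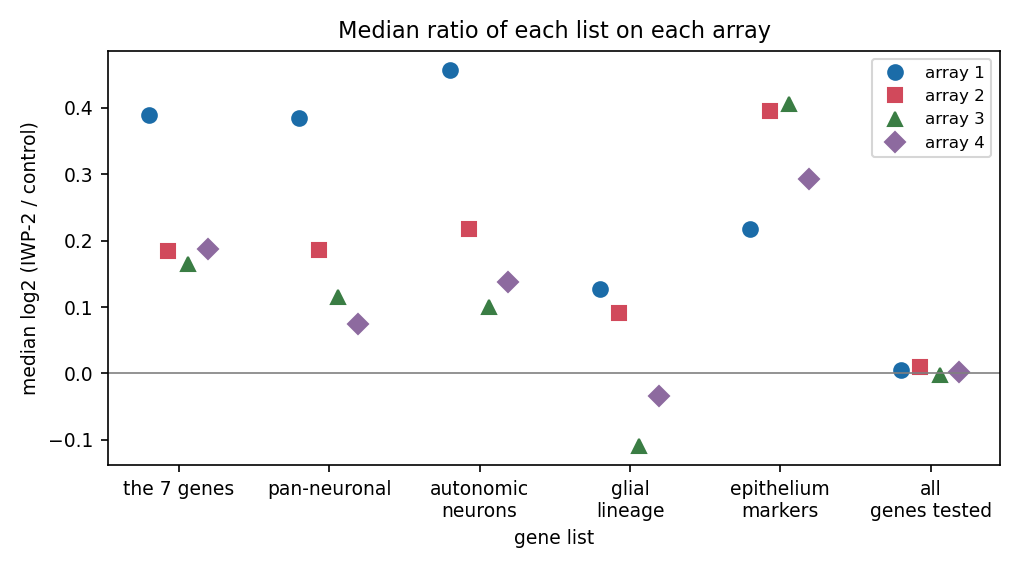
Median log2 ratio of IWP-2 over control (y axis) of 6 groups of genes (x axis) on each of the 4 arrays. On array 1 the neural lists lie above the other arrays, at 0.39 for the 7 genes and 0.46 for autonomic neurons, while epithelium markers are lowest there (0.22) and all genes stay near 0.

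The other cell types of the explant were read beside the neural genes. Smooth muscle markers were lower in 5 of 5 cases (median -0.73; summed log2 level 14.91 to 15.47 in the control and 14.25 to 14.78 in the treated channels). Of the markers of the endothelium 4 of 5 were higher (median 0.22; 2 of 5 without array 3 or 4), of blood 3 of 5 (0.27), of macrophages 3 of 5 (0.36), and of nephron progenitors 5 of 5 (0.28; 3 of 5 without array 1 or 3). The 3 melanocyte markers that were tested gave 0 calls (also 0 by limma at an unadjusted p of 0.05). The median of the 7 neural genes was thus of the size seen in several lists of other cell types, whose part in the result was not tested.

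Promoter sequences were read for the genes that have an entry in the RefSeq table used here (GRCm38.p6), which covers 4 of the 7 genes: Phox2a, Hand2, Tubb3 and, with 4 starts, Elavl4. The 250 bases upstream of the start of Phox2a and Hand2, the called genes with an entry, are shown 5′ to 3′ on the plus strand, with matches to any of 3 motifs in capitals. The motifs, searched on both strands, were CTTTGAT, the core bound by TCF/LEF factors, CATCTG, an E-box bound by bHLH factors, and TAATTA, a homeodomain core. They do not overlap one another in these windows.
Phox2a, chr7:101818063-101818312: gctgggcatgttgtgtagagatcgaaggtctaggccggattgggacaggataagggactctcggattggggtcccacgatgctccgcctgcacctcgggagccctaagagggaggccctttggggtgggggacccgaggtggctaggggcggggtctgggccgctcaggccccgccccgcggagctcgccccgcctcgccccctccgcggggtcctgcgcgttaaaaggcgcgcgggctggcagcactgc
Hand2, chr8:57320733-57320982: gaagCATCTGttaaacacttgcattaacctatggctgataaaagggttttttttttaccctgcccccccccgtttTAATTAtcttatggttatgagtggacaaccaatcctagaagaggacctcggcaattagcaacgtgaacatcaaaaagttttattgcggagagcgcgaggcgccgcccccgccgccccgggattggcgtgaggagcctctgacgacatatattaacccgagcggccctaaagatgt
The Hand2 window held CATCTG and TAATTA once each, and the Phox2a window, with a GC content of 70.4%, held 0 of the 3 motifs, as did that of Tubb3. Of the 4 Elavl4 windows 3 held CATCTG and 2 held TAATTA, and the latter 2 windows overlap each other. CTTTGAT was in 0 of the windows of the 4 genes and in 3.21% of 32851 windows of the same length, CATCTG in 14.4% and TAATTA in 4.84% of them. A match is a description of the letters and no evidence of binding.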

How the data were processed

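The authors scanned the arrays and processed them with Agilent Feature Extraction 10.7.3.1, per the labels. The deposited files give an intensity per spot and channel; the mean spot and local background intensity are raw, and the processed intensity was background-subtracted and dye-normalised. The deposited log10 ratio of red over green was used only to check directions. A table of the whole series, deposited as a score per probe and array (a signed fold change rounded to 1 decimal), served as an alternative.

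With limma 3.58.1 (R 4.3.3), raw intensities were corrected by normexp (offset 50) and normalised by loess within arrays (span 0.3). Flagged spots (3.01% to 3.38%) were left out, and the spots of a probe averaged. The offset draws the ratios of dim probes towards 0. Levels per channel were taken after a further quantile normalisation of mean intensities between arrays (Aquantile). The ranges, overlaps, summed levels and correlations rest on these levels, and the tested ratios do not. Genes entered the test when more than 0.5 of the spots of their probe were well above background in each of the 4 control or each of the 4 treated channels. The brightest probe stood for a gene. This left 29933 probes and 22455 genes.

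Log2 ratios were fitted with limma over 4 arrays with a dye term, and p-values (two-sided) were adjusted after Benjamini-Hochberg over all genes. The number of arrays limits the precision. Replicates are arrays, each pairing a treated with a control pool. Deviations of the channels of an array from their group means correlated with r of 0.513, 0.311, 0.164 and 0.436 across genes. The highest r of each control channel with the treated channel of another array was 0.155, 0.333, 0.168 and -0.0359. On arrays 2 and 3 the r within the array was thus not the higher one. The p-values rest on the spread of the treated over control ratios between these 4 arrays, after the dye term. By limma's moderation (eBayes), the variance of each gene was drawn towards a value common to all genes tested. The spread behind a p-value is thus not that of the gene's own 4 ratios alone. A difference between pools that both channels of an array share does not enter the p-values. The sources used here do not say whether pools came from separate litters, so the p-values hold for these pools only. The arrays share 1 slide and 1 scan. Promoter sequences are RefSeq's (GRCm38.p6).

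The 7 genes and the gene lists were chosen with earlier results of these data known, and the lists carry no test. From each list the text names up to 4 genes past the test with the largest change; a few genes are not reported here. Of 41 further probes of list genes, 19 were called the same way as the main probe, 13 were uncalled like it, 7 did not carry its call, and 2 (of Elavl4 and Rbfox3) were called where it was not, that of Rbfox3 with the opposite sign.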

Additional observations from a re-analysis of the deposited data

Results flagged for a closer look

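Among 163 sets of 4 array values (the log2 ratios of 133 genes, the medians of 16 lists and the levels of the 7 genes in 2 channels), 8 held an array far from the others, with a gap to its neighbour of over 0.8 of the range; about 1 in 20 sets does so by chance, which is 8.15 here. The gap is given as a share of the range. Array 1 stood apart for Hand2 (0.53 against 0.17 to 0.19, gap 0.939), for the median of the 7 genes (0.39 against 0.17 to 0.19, gap 0.901), for S100b (-0.12 against -0.75 to -0.74, gap 0.977), for Gfap (0.01 against -0.13 to -0.11, gap 0.902) and for the internexin gene Ina (0.65 against -0.04 to 0.05, gap 0.874). Array 3 stood apart for Chgb (0.24 against 0.67 to 0.69, gap 0.945) and for Tfap2a (0.21 against 0.49 to 0.52, gap 0.896). Array 4 stood apart for Tubb4b (0.03 against 0.09 to 0.10, gap 0.875).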

How the results depend on the processing

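The direction of Erbb3, Phox2a, Hand2, Elavl4, Tubb3 and Stmn2 held under all alternatives run, and that of Sox10 under all but 1. The median of the 7 genes lay between 0.18 and 0.36, and 0.35 for arrays 1 and 3 against 0.19 for arrays 2 and 4. Elavl4 and Tubb3 passed the test with an intensity filter (mean processed signal of more than 100: 0.13, adjusted p = 0.0492, and 0.17, adjusted p = 0.0422) and when the probes of a gene were averaged (0.14, adjusted p = 0.0395, and 0.17, adjusted p = 0.0457), which put 6 of the 7 genes higher. They were farther from it with median centring (adjusted p = 0.239 and 0.174), without the dye term (0.0851 and 0.11) and with 8 separate channels (0.616 and 0.505). Without the pairing of channels by array (no replicate block, 8 channels as separate samples) Hand2 (0.27, adjusted p = 0.202) and Stmn2 (0.34, adjusted p = 0.107) were lost, 2 of the 7 genes were higher, and 2033 genes were higher and 2068 lower in all. With the rounded series table Phox2a (0.49, adjusted p = 0.116), Hand2 (0.28, adjusted p = 0.138) and Stmn2 (0.35, adjusted p = 0.0707) were lost, Elavl4 passed (0.14, adjusted p = 0.00318), 2 of the 7 genes were higher, and 1833 genes were higher and 2050 lower. Leaving out 1 array at a time gave -0.26 to 0.08 for Sox10 (0.076 without array 3), 0.38 to 0.48 for Erbb3, 0.39 to 0.59 for Phox2a, 0.18 to 0.36 for Hand2, 0.10 to 0.16 for Elavl4, 0.11 to 0.22 for Tubb3 and 0.30 to 0.38 for Stmn2, with 3 to 5 of the 7 genes higher, 0 to 1 lower, and 2180 to 2813 genes lower in all. Tubb3 passed without array 3 (adjusted p = 0.0389) and without array 4 (adjusted p = 0.0489). The study's filter kept 206 genes lower and 108 higher at 1.5-fold, and 191 and 36 with no limit on intensity, with 0 of the 7 genes each time. Of 480 counts over the other lists and alternatives 435 stayed within 1.5 times and 45 moved farther. Over the alternatives, 2 to 14 pan-neuronal genes, 1 to 12 genes of autonomic neurons and 2 to 7 epithelium markers were higher. Between 0 and 5 smooth muscle markers were lower. Of 856 ratios of other list genes over the alternatives, 789 kept direction and side of the threshold, 66 lost their call and 1 gained one. With 8 separate channels, Chgb (adjusted p = 0.194), Nefm (0.114), Syt1 (0.0942) and S100b (0.0781) were among those lost. With the series table, Chgb (0.0684), Nefm (0.14), Syt1 (0.0707), S100b (0.112), Gata3 (0.0803), Gfra2 (0.0812) and Egr2 (0.0745) were among them. The cause of these shifts was not tested. A block for slide or scan was not run, since all arrays share them. All 8 probes were well above background in all 8 channels, so that signal over background did not limit these genes.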
